A study of Mus musculus with 4 samples.

Results

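Tox4, its relatives Tox2 and Tox3, and the genes of the proteins with which the Tox4 protein forms a phosphatase complex were described here in mouse epiblast stem cells after knockdown of Tox4. They are 9 genes of the 15429 in the deposited table: Tox4, Tox2, Tox3, Ppp1r10, Wdr82, Ppp1ca, Ppp1cb, Ppp1cc and Zc3h4. They were picked by symbol, for what their proteins are known to do and with earlier results of these data known. Each had a single row. Polyadenylated RNA was sequenced in 4 libraries of the epiblast stem cell line OE7, a pluripotent line from the post-implantation mouse embryo that carries an Oct4-Gip transgene, a reporter of Oct4. All 4 came from cells of passages 21 to 25 that were grown on fibronectin with Activin A at 20 ng/ml and Fgf2 at 12 ng/ml, and transfected with 1000 ng of esiRNA and 2 µl of lipofectamine. An esiRNA is a pool of short interfering RNAs cut from a long double-stranded RNA. The control libraries had received Luc esiRNA (n = 2) and the knockdown libraries Tox4 esiRNA (n = 2). The comparison therefore asks which transcripts differ between cells given Tox4 esiRNA and cells given Luc esiRNA. Effects of the loss of Tox4 and other effects of its esiRNA cannot be told apart in it. Both groups come from 1 line, and the time between transfection and harvest is not given in the sources used here. Nothing in the labels says that a group's replicates were grown as separate cultures, so a p-value here covers the variation among 4 libraries, part or all of which may be technical.

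TOX proteins bind DNA through a single HMG box, a fold that bends DNA and that they share with many chromatin proteins. Tox4 is the member found in the PTW/PP1 complex, in which the scaffold protein PNUTS (the product of Ppp1r10) holds a catalytic subunit of protein phosphatase 1, the WD-repeat protein Wdr82 and Tox4. The complex removes phosphate from the tail of RNA polymerase II and from the elongation factor Spt5, and is known for its part in slowing the polymerase at the ends of genes. Wdr82 also works with the zinc finger protein Zc3h4 in the restrictor, which ends transcription of short non-coding RNAs early, and with the SET1 histone methyltransferases.

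The stretch of coding sequence in which the TOX genes are most alike is shown first, because reads of a knocked-down gene and of its relatives can be told apart only where their sequences differ. It was found by sliding a window of 90 bases in frame along the longest coding sequence of Tox4 and keeping the best ungapped match in the other 2 genes. Capitals mark the 66 bases that are the same in all 3 genes, the sequences are those of the GENCODE transcripts (GRCm38), and positions are counted from the first base of the start codon.
Tox4, coding bases 757 to 846: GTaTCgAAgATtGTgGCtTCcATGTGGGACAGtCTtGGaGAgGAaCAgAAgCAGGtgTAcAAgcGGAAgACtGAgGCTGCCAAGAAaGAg
Tox2, coding bases 952 to 1041: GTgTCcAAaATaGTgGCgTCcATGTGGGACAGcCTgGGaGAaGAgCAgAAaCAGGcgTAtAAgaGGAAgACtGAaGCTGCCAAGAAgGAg
Tox3, coding bases 850 to 939: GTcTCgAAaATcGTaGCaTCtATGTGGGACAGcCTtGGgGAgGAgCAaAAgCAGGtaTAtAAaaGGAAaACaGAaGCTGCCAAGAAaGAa
Even in this stretch Tox2 shared 75 and Tox3 shared 72 of the 90 bases with Tox4, and the differences are spread over its whole length. Over the aligned coding sequences Tox4 was 67.6% identical to Tox2 and 65.0% to Tox3, and the longest run of bases shared with either was 17. No run of 36 or 50 bases from the annotated transcripts of Tox2 or Tox3 occurred in any other gene. Tox4 shares sequence with other genes on both strands. Of its runs of 36 bases 25.2% occur in another gene, and of its runs of 50 bases 20.0%. Of all its runs of 50 bases, 11.9% lie in Mettl3 and 1.55% in Rab2b on the opposite strand. On the same strand 6.35% lie in the processed pseudogene Gm5828. Gm5828 is not among the genes with deposited values, so its level could not be looked up.

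Tox4 (ENSMUSG00000016831) lies on chromosome 14 from 52279146 to 52296401 on the plus strand (GRCm38), with 8 blocks of exons. Its level, in FPKM (fragments per kilobase of gene, scaled by the depth of the library), was 16.7 in Luc replicate 1 and 17.5 in Luc replicate 2. It was 8.65 in Tox4 replicate 1 and 8.89 in Tox4 replicate 2. Both Tox4 esiRNA libraries were far below both controls, and the difference was many times the spread within either group. These values rest on 1697, 1404, 680 and 606 reads worked back from the FPKM. The mean fell from 17.1 ± 0.573 to 8.77 ± 0.172 FPKM (SD, n = 2 each), with a log2 fold change of -0.89 on the log2(FPKM + 1) scale (SE 0.05, limma adjusted p = 0.00228 over 12403 genes). Tox4 RNA was at 0.512 of its control level; in bulk RNA fewer cells with the transcript and less of it per cell cannot be told apart. Among the 325 genes that fell, its rank by size of fall was 23. Mettl3, which encodes the RNA m6A methyltransferase and overlaps 933 bases of Tox4 exons on the opposite strand, was at 9.07 and 8.57 FPKM in the controls and 10.3 and 9.98 FPKM with Tox4 esiRNA. Rab2b, a small GTPase gene that overlaps 195 bases, was at 9.57 and 8.54 against 8.75 and 8.17 FPKM. Neither passed the test (limma adjusted p = 0.139 and 0.549). The use of strand in counting is not given in the sources used here, so reads from the overlaps cannot be assigned.

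Tox2 (ENSMUSG00000074607, chromosome 2, 163203125 to 163324170, plus strand) is a relative of Tox4 that is best known from lymphocytes. It was low in these cells, at 1.34 and 1.39 FPKM in the Luc libraries and 2.08 and 2.04 FPKM in the Tox4 libraries, on 72, 59, 87 and 74 reads. The groups did not overlap, and the mean with Tox4 esiRNA was 1.51 times that of the controls. A log2 fold change of 0.37 (SE 0.10, with a 95% interval of 0.12 to 0.63) did not pass in limma on log2(FPKM + 1) (adjusted p = 0.108). The added 1 FPKM shrinks the change of a gene at this level, but with 0.1 FPKM added the change was 0.57 and did not pass either (adjusted p = 0.118). On the recovered reads it was 0.60 and passed (limma-voom adjusted p = 0.0214). The call for Tox2 therefore depends on the test, while its direction was the same in all 12 alternatives run, over which the adjusted p ranged from 0.0214 to 0.353.

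Tox3 (ENSMUSG00000043668, chromosome 8, 90247040 to 90348343, minus strand), a relative best known from neurons and breast epithelium, was at 2.01 and 1.70 FPKM in the Luc libraries and 2.09 and 2.10 FPKM in the Tox4 libraries. Both knockdown values lay just above the higher control, but the controls differed from each other by more than that. The log2 fold change was 0.12 (95% interval -0.15 to 0.38, limma adjusted p = 0.593) on 78 to 117 reads a library, a depth at which a change of that size was not detectable. Tox itself, the founding gene of the family and not among the 9, had 16 to 22 reads a library and a mean of 0.803 FPKM, below the minimum of 1 FPKM for testing. The summed level of Tox4, Tox2 and Tox3 was 20.1 and 20.6 FPKM in the controls and 12.8 and 13.0 FPKM after knockdown. Tox4 made up 83.3% and 85.0% of that sum in the Luc libraries and 67.5% and 68.2% in the Tox4 libraries, a mean of 84.2% ± 1.21 against 67.8% ± 0.523 (SD, n = 2 each). With 2 libraries against 2 an exact two-sided permutation test cannot give a p below 0.333, which is the value for both quantities, so these and the ratios further on are descriptions.

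**Figure D1:**
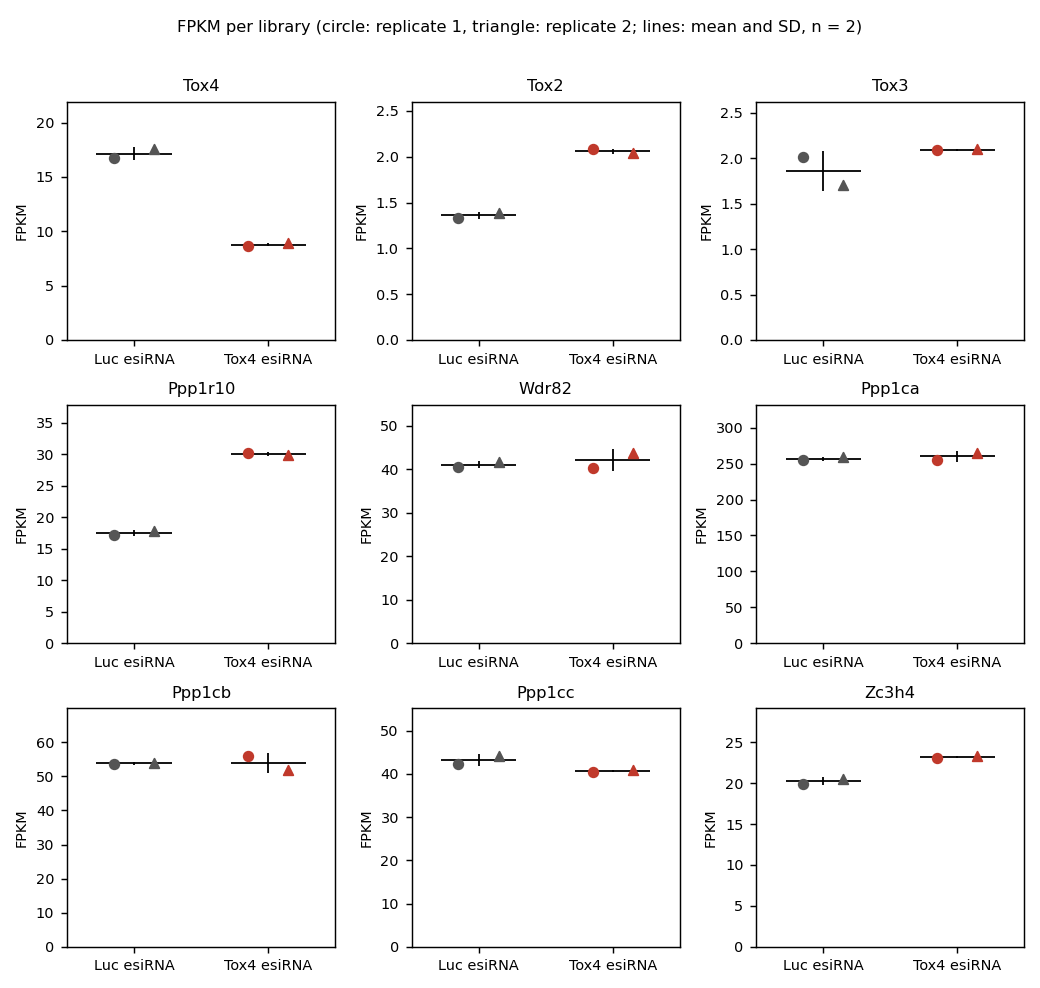
FPKM of each of the 9 genes (vertical axes, each from 0) in the Luc esiRNA and Tox4 esiRNA libraries; points are libraries, horizontal lines group means and vertical lines SD (n = 2). Tox4 falls from 17.1 to 8.77 FPKM and Ppp1r10 rises from 17.5 to 30.045 FPKM, while Wdr82, Ppp1ca and Ppp1cb have overlapping groups.

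Ppp1r10 (ENSMUSG00000039220), the gene of the PNUTS scaffold, was the partner gene that rose. It lies on chromosome 17 from 35916434 to 35932283 on the plus strand (GRCm38), with 20 blocks of exons. It was at 17.1 and 17.9 FPKM in the Luc libraries and at 30.3 and 29.8 FPKM in the Tox4 libraries, on 1317, 1085, 1805 and 1543 reads. The replicates of each group lay within 1 FPKM of each other, and both knockdown libraries stood far above both controls. The mean rose 1.72-fold, from 17.5 ± 0.532 to 30.045 ± 0.296 FPKM (SD, n = 2 each), with a log2 fold change of 0.75 (SE 0.04, 95% interval 0.64 to 0.85, limma adjusted p = 0.00228). Its rank by size of rise was 22 among the 234 genes that rose. The call held in all 12 alternatives, with adjusted p up to 0.0304. Of the runs of 50 bases in its transcripts, 1.50% occur in another gene. Mir1894, a microRNA gene inside its exons, was listed at 0 in all 4 libraries. It shares 81 bases with those exons on the same strand. How reads from these bases were counted is not given in the sources used here. The 0 is therefore no measure of whether Mir1894 was expressed.

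Markers of other cell types moved in the same libraries. Of the 9 neuroectoderm markers listed, 6 were in the table and 5 were tested: Sox1, Fabp7 and Ncam1 rose and Nes and Tubb3 did not pass, and the summed level of the list was 89.9 to 90.4 FPKM in the controls and 104 to 105 FPKM after knockdown. Pax6, a defining gene of neuroectoderm, was the listed marker in the table that was too low to test. Of 4 tested primitive streak markers T (Brachyury) fell, and the list summed to 34.5 to 35.8 FPKM in the controls and 25.1 to 25.6 FPKM after knockdown. Of 3 tested trophoblast and extraembryonic markers Krt8 and Krt18 fell. The third, Dab2, did not pass, with means of 3.65 and 3.62 FPKM (limma adjusted p = 0.960). The list summed to 61.0 to 63.3 and 46.3 to 49.1 FPKM. Most of that sum came from Krt8 and Krt18, with means of 19.65 and 37.5 FPKM in the controls, so its fall is theirs. No marker in the table was at 0 in all 4 libraries. Their part in the values of Ppp1r10, Tox2, Zc3h4 and Tox4 was not tested.

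The other subunits of the PTW/PP1 complex stayed close to their control levels. Wdr82 (ENSMUSG00000020257, chromosome 9, 106170928 to 106191139, plus strand) was at 40.4 and 41.6 FPKM in the Luc libraries and 40.3 and 43.8 FPKM in the Tox4 libraries. The knockdown libraries enclosed both controls, and their difference from each other was 2.98 times the counting error of their reads. The log2 fold change was 0.03 (95% interval -0.09 to 0.16, limma adjusted p = 0.757), which leaves room for a mean up to 1.11 times that of the controls.

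Ppp1ca, Ppp1cb and Ppp1cc encode the alternative catalytic subunits of protein phosphatase 1, each of which can be bound by PNUTS. Their most alike stretch of coding sequence, found in the same way from Ppp1ca, is shown because these paralogs, too, can be told apart only where they differ. Capitals mark the 73 of 90 bases that all 3 genes share.
Ppp1ca, coding bases 793 to 882: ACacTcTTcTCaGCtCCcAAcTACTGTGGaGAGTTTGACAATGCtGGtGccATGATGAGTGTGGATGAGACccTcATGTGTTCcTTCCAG
Ppp1cb, coding bases 790 to 879: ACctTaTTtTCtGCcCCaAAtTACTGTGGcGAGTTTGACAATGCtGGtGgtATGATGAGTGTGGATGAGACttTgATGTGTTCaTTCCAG
Ppp1cc, coding bases 793 to 882: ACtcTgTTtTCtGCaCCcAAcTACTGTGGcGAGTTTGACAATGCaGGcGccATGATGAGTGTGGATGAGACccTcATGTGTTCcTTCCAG
The capitals run unbroken over much of the middle of the stretch. Over the aligned coding sequences the pairs were 75.03% to 77.8% identical, and the longest shared run was 44 bases, between Ppp1ca and Ppp1cc. A run of 50 bases therefore separates the 3 coding sequences. The value of Ppp1cc is the least certain: 40.0% of its runs of 50 bases occur in another gene, and 38.9% in Ppp1ccb, a processed copy. Ppp1ccb is not among the genes with deposited values, so its level could not be looked up. Of the runs of Ppp1ca, 6.77% lie in Rad9a and 4.04% in an unnamed antisense gene, both on the opposite strand, and of those of Ppp1cb 16.4% lie in the unnamed gene model Gm43312. How reads with several matches were treated is not given in the sources used here.

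Ppp1ca (ENSMUSG00000040385, chromosome 19, 4192065 to 4195420, plus strand) was by far the most abundant of the 9 genes, at 255 and 259 FPKM in the Luc libraries and 255 and 265 FPKM in the Tox4 libraries. The groups overlapped, with a log2 fold change of 0.02 (95% interval -0.07 to 0.10, limma adjusted p = 0.847). Ppp1cb (ENSMUSG00000014956, chromosome 5, 32458843 to 32517433, plus strand) was at 53.6 and 54.0 FPKM in the controls and 56.0 and 51.8 FPKM after knockdown, so that the knockdown libraries lay on either side of the controls. Its log2 fold change was 0.0020 (95% interval -0.11 to 0.11, adjusted p = 0.987 in limma). Ppp1cc (ENSMUSG00000004455, chromosome 5, 122158278 to 122175273, plus strand) was at 42.2 and 44.1 FPKM in the controls and 40.5 and 40.9 FPKM after knockdown. Both knockdown values were below both controls, and lay nearer to the lower control than the controls lay to each other. The log2 fold change was -0.08 (95% interval -0.18 to 0.01, limma adjusted p = 0.297). For Ppp1ca and Ppp1cb the 95% interval leaves out changes beyond 0.11 in either direction on the log2 scale.

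Zc3h4 (ENSMUSG00000059273, chromosome 7, 16400910 to 16437696, plus strand), the zinc finger subunit of the restrictor, was at 19.9 and 20.6 FPKM in the Luc libraries and 23.1 and 23.3 FPKM in the Tox4 libraries, on 2294, 1874, 2071 and 1810 reads. The groups did not overlap, and the means, 20.2 ± 0.494 and 23.2 ± 0.134 FPKM (SD, n = 2 each), differed by 14.9%. The log2 fold change of 0.19 (SE 0.04, 95% interval 0.09 to 0.30) just missed the threshold in limma (adjusted p = 0.0650). On the recovered reads it was 0.20 and passed (limma-voom adjusted p = 0.00593), so that the call for Zc3h4, as for Tox2, depends on the test. Over the 12 alternatives its adjusted p ranged from 0.00593 to 0.302.

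**Figure D2:**
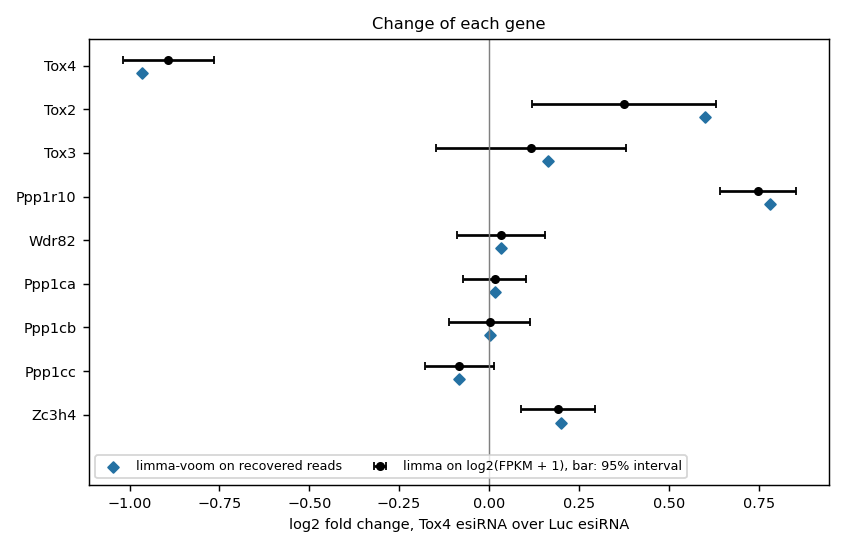
Log2 fold change (horizontal axis, Tox4 esiRNA over Luc esiRNA) of the 9 genes; black points with 95% intervals are from limma on log2(FPKM + 1) and blue diamonds from limma-voom on recovered reads. The estimates lie close together except for Tox2, at 0.37 and 0.60.

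Of the 9 genes, 1 rose (Ppp1r10), 1 fell (Tox4) and 7 did not pass. Of all 12403 tested genes, 1.89% were called higher and 2.62% lower, 4.51% in all. Tox4 is the target of the esiRNA, so its fall was set by the design. The 9 genes were also chosen with earlier results known, so these counts are descriptions. On the recovered reads limma-voom called 4 of the 9, against 11.8% of all tested genes: 3 higher (5.95% of all genes) and 1 lower (5.86%). For 6 of the 9 genes the groups had no overlap, 4 higher and 2 lower, not far from the 52.0% of all tested genes for which this held. The median log2 fold change was 0.03 over the 9 genes and -0.0034 over all tested genes. The calls over all genes were fewer when a library was left out: 27 higher and 34 lower without Luc replicate 1, 28 and 35 without Luc replicate 2, and 141 higher without Tox4 replicate 2. Tox4 and Ppp1r10 were called in each of these fits.

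**Figure D3:**
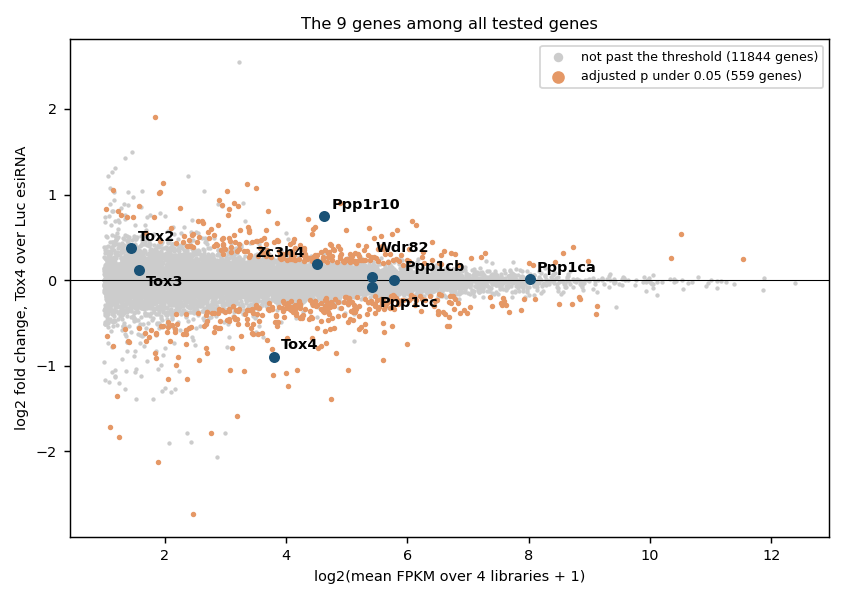
Log2 fold change (vertical axis) against the mean level as log2(FPKM + 1) (horizontal axis) of all 12403 tested genes; grey points did not pass and orange points passed an adjusted p of 0.05. Of the 9 genes, marked in blue, Tox4 and Ppp1r10 passed, at -0.89 and 0.75. By size of change among all tested genes they ranked 79 and 121, and some grey points lie farther from 0.

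In the control cells the levels of the 9 genes spanned Ppp1ca at 257 FPKM to Tox2 at 1.36 FPKM, that is, from the percentile of 98.6 to that of 7.71 among tested genes by the mean of the 4 libraries. In the Luc libraries the order was Ppp1ca, Ppp1cb, Ppp1cc, Wdr82, Zc3h4, Ppp1r10, Tox4, Tox3 and Tox2. Ppp1r10 and Tox4 were close there: Ppp1r10 was the higher in each library, while the values of the 2 genes overlapped across libraries. In the Tox4 libraries Ppp1r10 stood above Zc3h4 and Tox4 well below it, and the values of Wdr82 overlapped those of Ppp1cc. Tox2 and Tox3 differed by less than 0.1 FPKM after knockdown.

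Because FPKM is per length, levels can also be set against each other within a library. Tox4 had 0.977 and 0.982 FPKM for each FPKM of Ppp1r10 in the Luc libraries and 0.286 and 0.298 in the Tox4 libraries. The mean ratio after knockdown was 0.298 times that of the controls. Ppp1r10 had 0.0488 and 0.05004 FPKM for each FPKM of the summed catalytic genes in the controls and 0.0861 and 0.0834 after knockdown, a ratio of 1.72. Wdr82 had 2.36 and 2.33 FPKM for each FPKM of Ppp1r10 in the controls and 1.33 and 1.47 after knockdown, and Zc3h4 had 0.491 and 0.494 against 0.574 and 0.532 FPKM for each FPKM of Wdr82. The last difference, 0.0605 in the mean, was 0.0396 without Tox4 replicate 1. These ratios did not overlap between the groups (exact permutation p = 0.333 each, the smallest possible). The ratios that hold Tox4 or Ppp1r10 follow from the changes of those genes and are no separate result.

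The summed catalytic genes themselves were at 351 and 357 FPKM with Luc esiRNA and 351 and 358 FPKM with Tox4 esiRNA, with overlapping groups (exact permutation p = 0.667). Ppp1ca supplied 72.6% ± 0.132 of the sum in the controls and 73.3% ± 1.10 after knockdown, and Ppp1cb 15.2% ± 0.102 and 15.2% ± 1.03 (SD, n = 2 each). Ppp1cc supplied 12.2% ± 0.234 and 11.5% ± 0.0712, the only one of the 3 shares whose groups did not overlap (exact permutation p = 0.333). Each share differed by less than 1 percentage point between the group means.

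**Figure D4:**
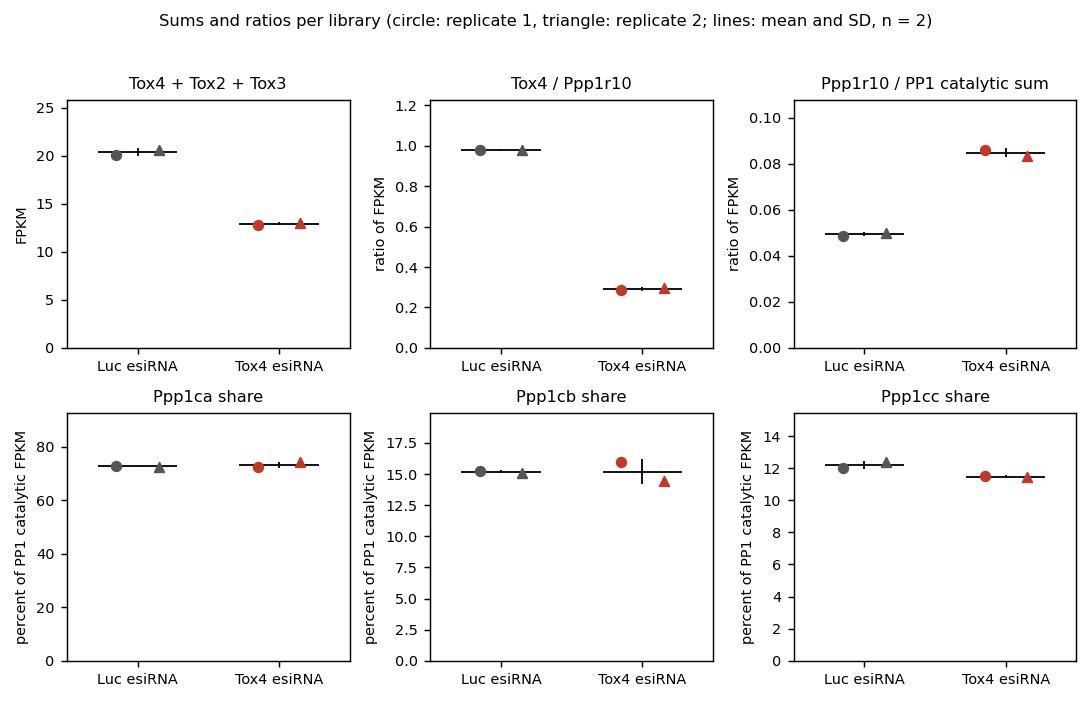
Summed FPKM of the TOX genes, FPKM of Tox4 per Ppp1r10 and of Ppp1r10 per summed PP1 catalytic genes (upper row), and the percent of each catalytic gene in their sum (lower row), by group; points are libraries, lines mean and SD (n = 2). The 2 ratios separate the groups, with Tox4 per Ppp1r10 near 0.980 in the controls and near 0.292 after knockdown, whereas the shares of Ppp1ca and Ppp1cb overlap.

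Other genes of the same machinery were followed in 7 lists with 118 tested genes. None rose or fell in limma after adjustment over all genes (lowest adjusted p = 0.0546), where 4.51% of all tested genes were called. At an unadjusted p under 0.05 there were 24, or 20.3%, where all tested genes gave 21.6%, and limma-voom called 8, or 6.78%, where it called 11.8% of all. The median log2 fold change over the 118 genes was 0.03.

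Among 33 regulators and inhibitors of protein phosphatase 1 the log2 fold changes ran from -0.29 to 0.19, with a median of 0.04. Ppp1r14b, an inhibitor gene, was at 219 and 223 FPKM against 236 and 243 FPKM (adjusted p = 0.121, limma), and Bod1, which is better known for its action on the related phosphatase PP2A, was at 65.0 and 64.2 FPKM on average. Among 10 genes of the SET1 complexes, which share Wdr82, the median was -2.33e-05, with the core subunit genes Dpy30 and Wdr5 at 0.01 and 0.0015. Of 15 genes of the restrictor and of early termination the median was 0.06. There Srrt, whose product Ars2 joins the cap-binding complex to RNA decay, was at 0.07, and Ncbp2, a cap-binding subunit gene, at 0.10.

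Of 23 cleavage, polyadenylation and termination genes the median was 0.02, with the endonuclease gene Cpsf3 at 0.10 and the scaffold gene Sympk at -0.03. The 12 genes listed as targets of the phosphatase and as kinases that oppose it had a median of 0.00065. Polr2a, the gene of the large subunit of RNA polymerase II, was at 62.7 and 62.8 FPKM, and Supt5, which encodes Spt5, at 74.9 and 73.3 FPKM. Of 8 genes for other phosphatases linked to the polymerase tail the median was -0.0031, with Ppp2r1a at -0.05 and Ppp4c at 0.05. Among 17 other HMG-box genes the median was 0.07, with Ssrp1, a subunit gene of the histone chaperone FACT, at -0.06 and Hmgb2 at 0.03. No gene of these lists passed, so that none of these values is a call. The 8 that limma-voom called were Rb1, Cdk9, Setd1b, Ctdsp1, Hmg20b and Tcf7l1, all higher, and Ppp1r3b and Hmgxb4, lower; they are named for that result, after the values were seen. Rb1, the retinoblastoma gene, whose protein is a target of PNUTS-bound phosphatase, was at 0.27 (6.99 and 6.87 against 8.62 and 8.52 FPKM, limma adjusted p = 0.0562).

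**Figure D5:**
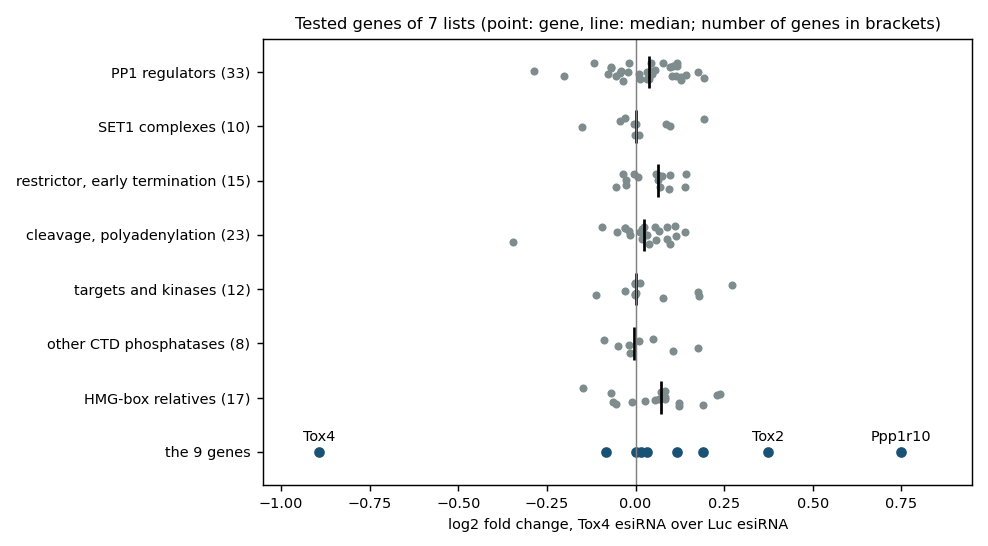
Log2 fold changes (horizontal axis) of the tested genes of 7 lists related to the complex, with the median of each list as a line, and of the 9 genes in the bottom row. All 118 listed genes lie between -0.34 and 0.27, while Tox4 is at -0.89 and Ppp1r10 at 0.75.

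The genes whose 4 values were most like those of Tox4 were taken by the smallest Euclidean distance between mean-centred log2(FPKM + 1) values over the 4 libraries. They were Ier3, an early response gene (distance 0.0477, 60.7 and 64.5 against 31.6 and 33.0 FPKM), Mme (0.120), Cdh1, the E-cadherin gene (0.136, 29.0 and 29.3 against 16.2 and 17.3 FPKM), Adm (0.138) and Klhl4 (0.139). All 5 fell, by 0.77 to 0.93 on the log2 scale. The genes most like Ppp1r10 were Dcxr (distance 0.0746), Zfp365 (0.107), the fatty acid-binding protein gene Fabp7 (0.112), Plk2 (0.128) and Efnb1 (0.133), all of which rose. Over 4 libraries in 2 groups such a distance is small for any gene with tight replicates and a change of the same size.

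The nearest tested gene on either side of each of the 9 was looked up as well, 18 genes in all. Their log2 fold changes ran from -0.63 to 0.24 with a median of 0.02, and 1 of the 18 passed, where 4.51% of all tested genes did. It was Fosl2, an AP-1 transcription factor gene 301001 bases upstream of Ppp1cb, which fell from 4.94 to 2.85 FPKM (-0.63, limma adjusted p = 0.0169). Mrps18b, which starts 45 bases from Ppp1r10 on the opposite strand, was at 15.5 and 15.9 FPKM in the controls and 15.3 and 16.5 FPKM after knockdown (0.02, 95% interval -0.11 to 0.15). That interval leaves out a rise of the size seen for Ppp1r10.

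Start sites from RefSeq (GRCm38.p6) were used for 8 of the 9 genes, all but Ppp1ca. The 250 bases before the most upstream start were compared with those of 32851 starts of all genes. The windows of the 8 had a median GC content of 71.4% and a median observed-to-expected CpG ratio of 0.870, where all windows had 52.4% and 0.374. All windows were taken whatever the level of the gene, while the 8 genes were all expressed. Values for expressed genes alone were not worked out. Neither these figures nor the motif shares below therefore set the 8 apart from other expressed genes. GGGCGG, the GC box, occurred on either strand in all 8, and in 32.7% of all windows. TATAAA occurred in the window of Ppp1r10, and in 12.4% of all windows. The windows of Ppp1r10 and Zc3h4 lie inside the genes as GENCODE draws them. Those of Ppp1cb and Tox3 lie inside in part, and those of Tox2 and Wdr82 only touch the first bases. CCAAT and CACGTG occurred in none of the 8, and in 33.8% and 6.02% of all. The motifs were searched as spelled, on both strands, and a match is no evidence of binding.

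The libraries held 19008829 and 14998211 reads with Luc esiRNA and 14739242 and 12778056 with Tox4 esiRNA, as worked back from the FPKM. The median was 548 reads per tested gene and library. All 10 epiblast stem cell markers listed were tested, with a summed level of 1407 to 1442 FPKM. Of these Sox2, a core pluripotency factor gene that neural progenitors also express, rose from 76.3 and 76.4 to 93.2 and 87.6 FPKM (log2 fold change 0.24, limma adjusted p = 0.0355), and limma-voom also called Dnmt3b lower (adjusted p = 0.0103; 0.0825 in limma). The 5 of 8 naive markers in the table summed to 7.13 to 8.44 FPKM, and the 1 tested, Klf2, did not pass (adjusted p = 0.326 in limma). The 7 of 8 fibroblast markers in the table summed to 20.8 to 21.0 FPKM in the controls and 19.1 to 20.0 FPKM after knockdown, and none of the 4 tested passed in limma. Among these, Pdgfrb was at 9.40 and 9.31 against 8.27 and 7.25 FPKM and was called lower by limma-voom alone, and Col1a2 was at 3.87 and 4.08 against 3.75 and 3.93 FPKM.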

How the data were processed

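Polyadenylated RNA of 2 Luc esiRNA and 2 Tox4 esiRNA libraries was analysed, grouped by library title. The authors deposited FPKM values of 15429 genes; the submitters' processing notes name CASAVA 1.8, STAR 2.3.0e and GRCm38.p1, and the counting program, read length and annotation were not given in the sources used here. The 12403 genes whose mean over the libraries reached 1 FPKM were tested on log2(FPKM + 1) with limma 3.58.1 in R 4.3.3: moderated test with an intensity trend, two-sided, Benjamini-Hochberg adjustment over all tested genes, threshold 0.05, no covariate. The fit was tested on simulated data.

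Reads were worked back from the FPKM values. The commonest ratio between libraries among 430 low genes gave the depths, and for each gene the smallest set of whole reads that implied a whole length (tolerance 0.02 bp) was taken. This succeeded for 100% of genes, and for 4.47% a common factor had to be chosen. limma-voom on these reads was an alternative. Replicates differed by more than sampling noise (chi-square per degree of freedom 1.64 and 1.96). Positions, overlaps and transcripts came from GENCODE M21, start sites from RefSeq.

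Named were the 9 genes; list members past the threshold, or else the 2 with the highest level; the 5 genes most like Tox4 and Ppp1r10; and overlapping or nearest genes. The 9 genes and all lists were chosen with earlier results of these data known.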

Additional observations from a re-analysis of the deposited data

How the results depend on the processing

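The alternatives were pseudocounts of 0.1 and 0.5 FPKM, no filter on low values, no intensity trend, libraries rescaled to equal medians or upper quartiles, limma-voom on recovered reads, a replicate block, and each library left out in turn. Tox4 and Ppp1r10 kept direction and call in all 12, from -0.96 to -0.86 and from 0.72 to 0.78. limma-voom called 3 of the 9 genes higher instead of 1, adding Tox2 (0.60) and Zc3h4 (0.20). The uncalled genes near 0 changed sign with a library left out: Wdr82 ranged from -0.0258 to 0.0926, Ppp1ca from -0.0130 to 0.0448 and Ppp1cb from -0.0523 to 0.0562. Over all genes, 234 rose and 325 fell; the counts were 146 and 202 without the filter, 33 and 45 without the trend, and 738 and 727 in limma-voom. They ranged from 27 to 176 and from 34 to 296 with a library left out, lowest without either Luc library. Without a Luc library the spread comes from the Tox4 pair alone, and without a Tox4 library from the Luc pair alone. The cause of these shifts was not tested. With a library left out, the differences between the groups near 0 changed sign: the summed catalytic genes ranged from -2.81 to 3.92 FPKM, and the shares of Ppp1ca and Ppp1cb from -0.0778 to 1.47 and from -0.711 to 0.740 percentage points. Zc3h4 per Wdr82 ranged from 0.0396, without Tox4 replicate 1, to 0.0815; the other sums and ratios kept their direction. For the share of Tox4, the summed catalytic genes and the ratios of or to Wdr82 this was chosen after seeing the data. Same-numbered libraries did not deviate together (correlation across genes -0.04). That cannot show whether they were handled as pairs, and the titles give only a replicate number. The replicate block gave 222 rises and 334 falls and changed no call among the 9 genes. Depth limits Tox2 and Tox3, with 59 to 117 reads a library. The intervals assume that the spread of 2 libraries, moderated over genes, holds for each gene.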
